A study of Mus musculus with 9 samples.

Results

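The comparison described here set 3 libraries of mouse pancreatic stellate cells grown in tumour organoid conditioned medium with a JAK kinase inhibitor (CM-JAKi) against 3 libraries grown in conditioned medium alone (CM). These are 6 of the 9 libraries of the study, chosen by their labels, and libraries of the same replicate number were treated as pairs. Stellate cells are the fibroblast-like cells of the pancreas that make matrix in injury and cancer. The cells were wild type, of C57BL/6J origin, and were kept in culture for 4 days, in CM-JAKi with 500 nM AZD1480 throughout. The other 3 libraries came from the control medium, DMEM with 5% FBS (MG-CM), and serve below as a reference level. Replicate 1 was the line PSC4, and replicates 2 and 3 were PSC5-I and PSC5-II, both labelled as the line PSC5. Separate sources of conditioned medium were used for the cohorts, which the labels do not define; if a cohort is a replicate number, line and medium source cannot be told apart. Whether CM also held the solvent of the inhibitor is not given in the sources used here. There was 1 inhibitor at 1 dose.

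JAK kinases sit on the inner tails of cytokine receptors that have no kinase activity of their own, among them the gp130 receptors of the IL-6 family and the interferon receptors. An activated JAK phosphorylates STAT factors, which pair, enter the nucleus and bind DNA. STAT3 serves mainly the IL-6 family, while STAT2, with IRF9, serves the type I interferons, and SOCS proteins and USP18 feed back on the pathway. In pancreatic cancer, fibroblasts with an inflammatory and fibroblasts with a contractile programme have been described, and IL-6 family signalling through JAK is known as a feature of the former. AZD1480 is a small molecule that competes with ATP at JAK2 and JAK1. Transcripts alone were measured here, so phosphorylation was not observed.

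Library totals were 25625806 to 32466018 counts. Fibroblast markers were at 4355 to 8032 summed CPM (count values relative to the library total, adjusted with TMM factors) in all 9 libraries. Among markers of other cells, Epcam and Cdh1 had at most 6 counts, Ptprc 1 and Sox10 7 in any library. Other genes of the same lists reached more, up to 3287 counts for Cd14, 2445 for Ncam1, 2046 for Msln, 648 for Krt19, 475 for Muc1, 427 for Emcn and 423 for Cela1. Mitochondrial transcripts held 1.53% to 1.90% of counts. Levels below are CPM in replicates 1, 2 and 3, in that order, and fold changes are on the log2 scale, CM-JAKi minus CM, with their standard errors (SE). A gene was called at a Benjamini-Hochberg adjusted p under 0.05 in the edgeR quasi-likelihood fit with the replicate number as a block, and "rose" and "fell" are used of called genes alone. In bulk RNA, fewer cells of a type and less RNA per cell cannot be told apart. Comparisons with MG-CM share libraries with the comparison of CM-JAKi and CM, and their values are given side by side.

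Addition of the inhibitor went with lower transcripts of the interferon response, of antigen presentation and of several IL-6 family, acute phase, glycolytic and amino acid supply genes, and with higher transcripts of contractile genes, several collagens and p53 targets. Counts of falls in the antiviral, GTPase and MHC class I lists stayed within 1.5 times on leaving out any 1 replicate, while the counts of many other lists did not and are given with each list. Of 13613 genes tested, 2126 fell (15.6%) and 2529 rose (18.6%). The counts of every list below are to be read beside these 2 shares. Some genes are in more than 1 list, such as Lrg1 and Hif1a, so the lists are not separate evidence. At least 2-fold changes made up 604 of the falls (4.44% of genes tested) and 738 of the rises (5.42%). Of the 4655 called genes (34.2%), 4647 moved in the called direction in 3 of 3 pairs. The groups of 3 did not overlap at 5216 genes (38.3%), the share to set beside each statement on overlap below. The median change of all genes was 0.00456. With library size alone for scaling the median became 0.0997, and 1470 genes fell and 3405 rose. The counts over all genes were lowest without replicate 2, when 668 genes fell and 764 rose. They were 1093 and 1273 without replicate 3, 1981 and 2212 without replicate 1, and 1216 and 1369 without the block. Without replicate 1 both remaining pairs were PSC5, and without replicate 2 or 3 they were 1 of each line. The replicate left out and the mix of lines thus cannot be told apart. Calls kept on leaving out each replicate in turn numbered 550 falls (4.04%) and 622 rises (4.57%). In the same fit CM-JAKi was lower than MG-CM at 327 genes (2.4%) and higher at 252 (1.85%), while CM differed from MG-CM at 1748 lower (12.8%) and 1577 higher genes (11.6%).

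**Figure D1:**
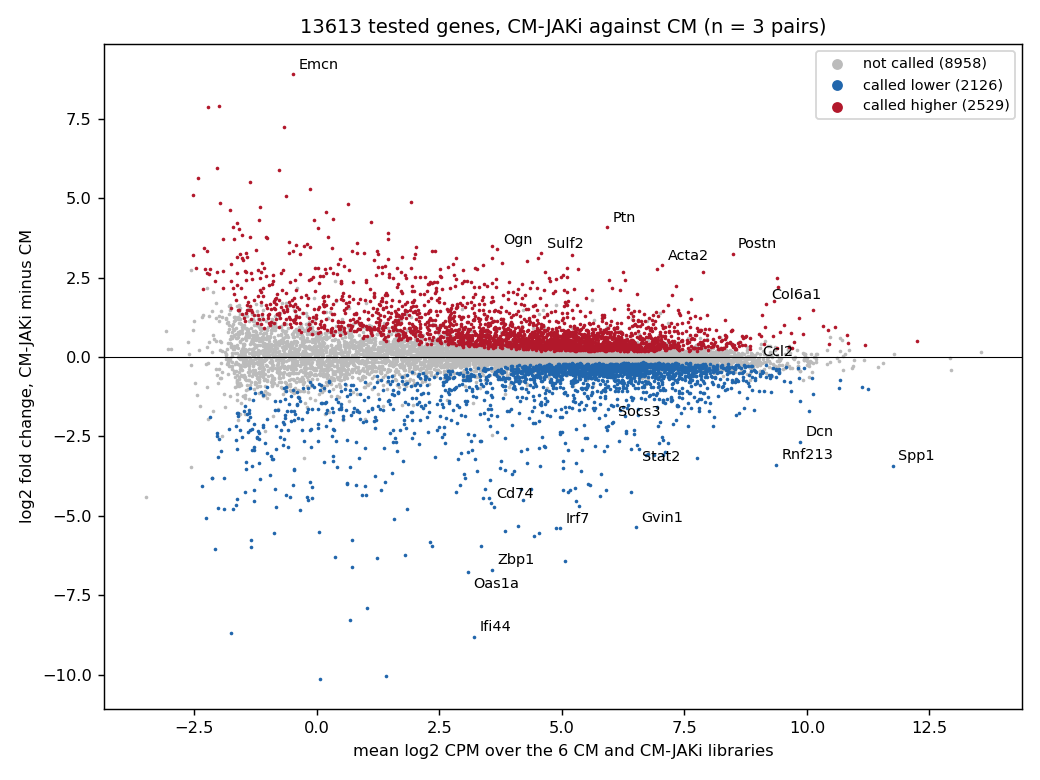
Each point is 1 of 13613 tested genes, with mean log2 CPM over the 6 CM and CM-JAKi libraries on the x axis and the log2 fold change of CM-JAKi minus CM on the y axis; blue points fell (2126) and red points rose (2529). Interferon-stimulated genes such as Ifi44 (-8.81) lie far below 0; Ptn (4.08) and Postn (3.26) lie above it, as does Emcn (8.90), which had 1 count in all of CM.

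The share of each gene list that was called is drawn for the lists with at least 5 tested members. Lists of interferon-stimulated genes lie at one end and contractile genes at the other, with all genes tested as the reference.

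**Figure D2:**
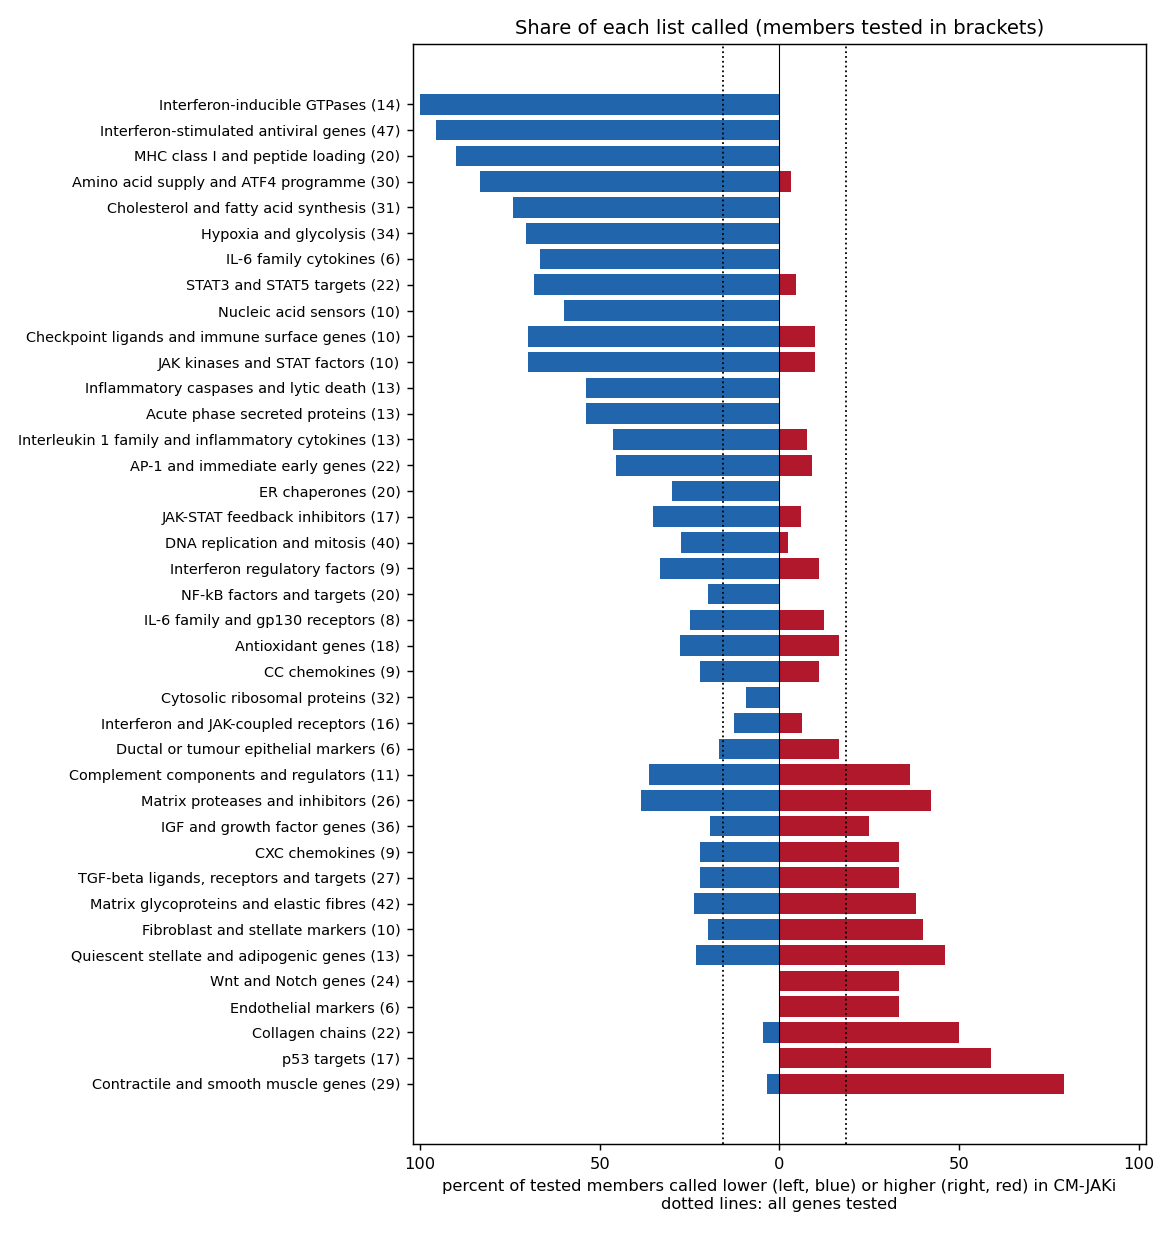
Bars show the percent of tested members of each list that fell (left, blue) or rose (right, red) in CM-JAKi against CM, and dotted lines mark the 15.6% and 18.6% of all genes tested. All 14 interferon-inducible GTPases fell, and 23 of 29 contractile genes rose.

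The pathway's own genes come first. Among 10 JAK and STAT genes, 7 fell (70% of the list, against 15.6% of all genes) and 1 rose, with a median change of -0.61. Jak2 stood at 575, 305 and 354 CPM in CM and 177, 126 and 147 in CM-JAKi, a change of -1.41 ± 0.10 (adjusted p = 0.000264). Stat2 went from 236, 291 and 195 CPM to 39, 35.5 and 32.5, a change of -2.76 ± 0.22 (adjusted p = 0.000425). The groups did not overlap for either gene. Jak3 (-1.39 ± 0.10) fell as well. Jak1 was at 349, 356 and 353 CPM in CM and 295, 271 and 263 in CM-JAKi (-0.35 ± 0.07, adjusted p = 0.0113), and Stat3 at 391, 406 and 487 against 314, 281 and 308 (-0.50 ± 0.08, adjusted p = 0.0049). Both calls ended without replicate 2 (adjusted p = 0.118 for Jak1 and 0.0725 for Stat3) and without replicate 3 (0.122 and 0.0665), and over the 9 alternatives p ran from 6.7e-05 to 0.122 and from 3.04e-07 to 0.0725. The member that rose was Tyk2, by 0.31 ± 0.09 with overlapping groups, and its call ended without any 1 replicate (adjusted p = 0.1, 0.085 and 0.14 without replicates 1, 2 and 3), without the block (0.0911) and in the 6 libraries alone (0.0863), with p from 0.019 to 0.14 over the alternatives.

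Feedback inhibitors of the pathway fell in 6 of 17 cases and rose in 1, Pias4 (0.24), with a median of -0.17. Without replicate 2 or without replicate 3 the list had 3 falls and no rise, and the Pias4 call also ended without the block (0.154), in the 6 libraries (0.107) and with DESeq2 (0.0696; 0.0141 to 0.294). Socs3, the feedback inhibitor of gp130 receptors, was at 141, 99.5 and 169 CPM in CM and at 30.4, 32.6 and 34.9 in CM-JAKi, below its 82.6, 68 and 77.8 in MG-CM. The change was -2.04 ± 0.14 (adjusted p = 0.000264), and against MG-CM it was -1.22 (adjusted p = 0.00779). Socs2, a target of STAT5, was at 22.8, 26.7 and 20.8 CPM in MG-CM, against 6.57, 11 and 8.1 in CM and, with the inhibitor, 2.09, 2.09 and 2.2, so that it was lower in CM than in MG-CM and lower again with the inhibitor (-1.99 ± 0.16, adjusted p = 0.000375). Usp18, which restrains the type I interferon receptor, fell by 4.53 ± 0.30 on the log2 scale. Socs1 was not called, at 5.15, 5.39 and 6.53 CPM in CM and 5.33, 4.49 and 7.23 in CM-JAKi (adjusted p = 0.956).

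Of 6 IL-6 family cytokine genes tested, 4 fell, and 1 fell without the block, without replicate 2 or without replicate 3. Il6 stood at 28.3, 4.24 and 16.9 CPM in CM and 9.27, 0.928 and 1.32 in CM-JAKi, and at 2.61, 1.66 and 2.61 in MG-CM. Each pair fell, but the groups overlapped, because the CM library of replicate 2 lay below the CM-JAKi library of replicate 1. The change of -2.29 ± 0.55 (adjusted p = 0.0202) was no longer called without the block (0.137), without replicate 2 (0.0856) or without replicate 3 (0.116), and p ran from 5.75e-06 to 0.137 over the alternatives. Clcf1, another ligand of gp130 complexes, fell from 42.3, 34.8 and 39.4 CPM to 24.6, 22.9 and 18.4 (-0.82 ± 0.10, adjusted p = 0.0017). The falls of Il11 (-1.99) and Cntf (-0.51) ended without the block (0.0809 and 0.184), without replicate 2 (0.103 and 0.191) and without replicate 3 (0.166 and 0.177), with p up to 0.166 and 0.191, that of Il11 also without the filter on low counts (0.0565), and that of Cntf also in the 6 libraries alone (0.0748) and with library size alone (0.0604); the lowest p were 0.0047 and 0.0252. Lif, whose product acts through the LIF receptor and gp130, was at 42.6, 8.71 and 20.3 CPM in CM and 34.6, 9.78 and 16.7 in CM-JAKi, with overlapping groups and a change of -0.17 ± 0.42 (adjusted p = 0.776). Lif was higher in CM than in MG-CM (1.84, adjusted p = 0.0301).

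Among 8 receptor genes of this family, 2 fell (25%, against 15.6% of all genes) and 1 rose. Osmr, the oncostatin M receptor chain, went from 653, 652 and 711 CPM in CM to 393, 314 and 286 in CM-JAKi (-1.03 ± 0.12, adjusted p = 0.00115), without overlap. Il6st, which encodes gp130 itself, went from 595, 618 and 722 CPM to 452, 402 and 432 (-0.59 ± 0.11, adjusted p = 0.00709). That call ended without replicate 2 (0.0717) and without replicate 3 (0.0821), with p from 2.07e-06 to 0.0821 over the alternatives. Il11ra1, the IL-11 receptor chain, rose from 48.1, 61.5 and 67.1 CPM to 148, 130 and 123 (1.18 ± 0.15, adjusted p = 0.00181). Of 16 further receptors and ligands that couple to JAK kinases, 2 fell (12.5%, against 15.6% of all genes) and 1 rose; without replicate 1, 4 fell and 2 rose. The largest fall was that of Il13ra1, from 555, 284 and 304 CPM to 85.1, 47.1 and 43.8 (-2.69 ± 0.09, adjusted p = 3.06e-05), a receptor chain for IL-13 that pairs with the IL-4 receptor chain. The other was that of Il15ra, an IL-15 receptor chain, from 2.02, 1.33 and 0.919 CPM to 1.32, 0.688 and 0.387 with overlapping groups (-0.88 ± 0.23, adjusted p = 0.0232). That call ended without the block (0.286), in the 6 libraries (0.064), with DESeq2 (0.0826), without replicate 2 (0.162) and without replicate 3 (0.134), with p from 0.0222 to 0.286. Ghr, the growth hormone receptor, rose from 44.8, 92.2 and 82.3 CPM to 124, 108 and 145 (0.82 ± 0.23, adjusted p = 0.0329), and its call ended in the 6 libraries (0.0695), without the filter (0.0537) and without replicate 3 (0.154; 0.000892 to 0.154). The interferon receptor genes Ifnar1, Ifnar2, Ifngr1 and Ifngr2 were not called.

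Genes listed as STAT3 or STAT5 targets fell in 15 of 22 cases and rose in 1, with a median of -0.78. Lrg1, a secreted glycoprotein of the acute phase, fell from 3.69, 2.66 and 4.33 CPM to 0.185, 0.0898 and 0.193 (-4.51 ± 0.29, adjusted p = 0.00019). Pim1, a kinase gene that STATs induce, went from 50.9, 43.4 and 52.5 CPM to 24.5, 20.5 and 21.6 (-1.14 ± 0.07, adjusted p = 0.000203). Il4ra, the IL-4 receptor chain, fell from 459, 288 and 507 CPM to 104, 78.4 and 88.5 (-2.18 ± 0.13). Junb (-1.40 ± 0.13) and Hif1a (-1.60 ± 0.16) also fell, each without overlap of the groups. The member that rose was Ccnd1, the cyclin D1 gene (1.50), with overlapping groups and no call without the block (0.236; 1.04e-09 to 0.236 over the alternatives).

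The interferon-stimulated antiviral genes were the list with the lowest median change, -3.81, and 45 of its 47 tested members fell; 39 of them fell at least 4-fold. Ifi44, a gene of antiviral function, stood at 171, 243 and 132 CPM in CM and 0.339, 0.419 and 0.503 in CM-JAKi, a change of -8.81 ± 0.62 (adjusted p = 0.000309). Its level in MG-CM was 32.4, 9.07 and 16.7 CPM, so the 3 groups were separated, with CM-JAKi lowest. Mx2, an antiviral GTPase, went from 37.4, 46.8 and 24 CPM to 0.8, 0.479 and 0.696 (-5.83 ± 0.47, adjusted p = 0.000459). Zbp1, a sensor of Z-form nucleic acid, went from 128, 135 and 90.6 CPM to 1.66, 1.05 and 0.89 (-6.69 ± 0.43, adjusted p = 0.000265). These levels fell together in all 3 pairs. Isg15, the ubiquitin-like modifier, fell by 3.99 on the log2 scale, and Rnf213, a large ubiquitin ligase, by 3.38. Oas1a (-6.76), Apol9a (-5.54) and Apol9b (-5.63) have near-identical copies among which estimated counts may be split, so their single values are uncertain.

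The pattern reached below the level in control medium. In all 45 antiviral genes that fell, the mean of CM-JAKi was under that of MG-CM. Among all 2126 genes that fell, this was so for 1689. Of the 47 antiviral genes tested, 38 were called lower in CM-JAKi than in MG-CM, against 2.4% of all genes. Irf7, the interferon regulatory factor that amplifies the response, was at 79.5, 33.6 and 40.5 CPM in MG-CM, against 171, 280 and 161 in CM and, with the inhibitor, 4.4, 5.39 and 4.72. Its change was -5.39 ± 0.41 against CM (adjusted p = 0.000387) and -3.38 against MG-CM (adjusted p = 0.00882). Irf9, the DNA-binding partner of STAT2, fell from 167, 177 and 139 CPM to 24.8, 23.2 and 20.8 (-2.81 ± 0.15). The antiviral members not called were Ifit2, at 107, 124 and 79.2 CPM in CM and 107, 85.5 and 81 in CM-JAKi (-0.18 ± 0.14, adjusted p = 0.339), and Ifitm2 (0.12, adjusted p = 0.256). Of 9 interferon regulatory factors 3 fell and 1, Irf8, rose from 0.174, 0.248 and 0.197 CPM to 0.339, 0.898 and 1.28. The Irf8 call ended without replicate 2 (0.12) and without replicate 3 (0.112), over a range of 0.00817 to 0.12. Irf1, an interferon-induced factor, went from 101, 144 and 122 CPM to 76.5, 95.4 and 93.6 (-0.46 ± 0.09), and was not called without replicate 2 (0.104; range 0.000245 to 0.104).

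Among the interferon-inducible GTPases, which act on vacuoles that hold intracellular pathogens, 14 of 14 fell, with a median of -3.55. Igtp was at 93.8, 152 and 87.4 CPM in CM and 7.91, 10.6 and 10.7 in CM-JAKi (-3.49 ± 0.28, adjusted p = 0.000425). Irgm1, a regulator of the other members, went from 189, 330 and 196 CPM to 31.9, 34.2 and 29.4 (-2.88 ± 0.22, adjusted p = 0.000388). Gbp3, a guanylate-binding protein, fell by 4.67 ± 0.41 on the log2 scale and Gvin1, a very large GTPase, by 5.36 ± 0.57. No CM-JAKi library reached the level of any CM library for any of the 14 genes, while the groups did not overlap at 38.3% of all genes.

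To show the letters that STAT dimers and the interferon-activated complex of STAT2 and IRF9 are known to bind, the 200 bases before the start site are printed for genes that fell, taken from RefSeq on GRCm38.p6 and matched by symbol. The genes were picked because their promoter window holds a match, so they do not show how often a match occurs. Capitals mark matches, on either strand, of TTCNNNGAA (the GAS site) and GAAANNGAA (the core of the interferon response element); neighbouring matches can overlap and then form 1 run. Each sequence reads 5′ to 3′ on the gene's strand.
Oas1a, chr5:120907526-120907725, - strand: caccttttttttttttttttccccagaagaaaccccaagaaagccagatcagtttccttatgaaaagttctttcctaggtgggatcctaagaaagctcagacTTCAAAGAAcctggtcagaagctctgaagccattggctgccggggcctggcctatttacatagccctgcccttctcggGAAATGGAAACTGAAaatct
Irgm1, chr11:48871421-48871620, - strand: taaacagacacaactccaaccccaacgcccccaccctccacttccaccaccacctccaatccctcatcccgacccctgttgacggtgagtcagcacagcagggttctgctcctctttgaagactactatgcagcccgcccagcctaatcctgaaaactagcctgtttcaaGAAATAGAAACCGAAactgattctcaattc
Igtp, chr11:58199356-58199555, + strand: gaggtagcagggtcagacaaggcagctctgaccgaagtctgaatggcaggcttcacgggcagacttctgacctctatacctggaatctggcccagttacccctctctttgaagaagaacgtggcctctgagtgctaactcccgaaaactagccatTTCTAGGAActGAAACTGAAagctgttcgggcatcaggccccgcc
Gbp3, chr3:142559844-142560043, + strand: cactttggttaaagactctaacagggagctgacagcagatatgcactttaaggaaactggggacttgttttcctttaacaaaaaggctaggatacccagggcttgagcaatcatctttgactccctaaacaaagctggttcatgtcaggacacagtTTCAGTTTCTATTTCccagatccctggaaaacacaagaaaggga
Irf1, chr11:53769814-53770013, + strand: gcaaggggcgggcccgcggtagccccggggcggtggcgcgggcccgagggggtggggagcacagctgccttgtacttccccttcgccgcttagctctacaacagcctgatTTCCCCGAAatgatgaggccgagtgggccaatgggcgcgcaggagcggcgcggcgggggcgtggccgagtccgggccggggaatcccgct
Socs3, chr11:117969367-117969566, - strand: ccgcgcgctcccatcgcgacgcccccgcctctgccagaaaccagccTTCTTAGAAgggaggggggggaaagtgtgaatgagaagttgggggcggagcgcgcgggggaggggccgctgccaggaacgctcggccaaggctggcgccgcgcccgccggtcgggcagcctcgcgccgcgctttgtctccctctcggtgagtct

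Among all 32851 promoter windows of 300 bases in the RefSeq table (250 before and 50 after the start), 8.3% hold TTCNNNGAA and 8.56% hold GAAANNGAA. Irf1 and Socs3 show a GAS match in the printed stretch without the interferon core. Oas1a and Igtp show both, and in Oas1a, Irgm1 and Gbp3 a pair of overlapping cores forms 1 run, in Gbp3 on the opposite strand. Called and other genes are not compared here. A promoter was matched by symbol for 77.8% of the tested genes, 77.6% of those that fell and 79.1% of those that rose. For the lists with at least 80% matched, a GAS match, held by 9.55% of all genes in the table, was in 3 of 8 interferon regulatory factors (37.5%), 2 of 8 checkpoint and immune surface genes (25%), 3 of 14 JAK-coupled receptors (21.4%), 4 of 20 STAT3 and STAT5 targets (20%), 5 of 26 amino acid supply genes (19.2%), 3 of 17 NF-kB factors and targets (17.6%), 2 of 17 MHC class I and peptide loading genes (11.8%), 1 of 24 contractile genes (4.17%) and 1 of 31 hypoxia and glycolysis genes (3.23%). It was in none of the matched genes of the IL-6 family cytokine, JAK and STAT, collagen, ER chaperone, p53 target and acinar lists. The share in STAT3 and STAT5 targets was thus near that in amino acid supply genes. The interferon core, held by 9.76% of all genes, was in 5 of 17 MHC class I and peptide loading genes (29.4%), 2 of 8 checkpoint and immune surface genes (25%), 2 of 9 JAK and STAT genes (22.2%), 3 of 14 JAK-coupled receptors (21.4%), 1 of 8 interferon regulatory factors (12.5%) and 2 of 20 STAT3 and STAT5 targets (10%), and in 0% to 7.14% of the matched genes of the other such lists. Among the lists below 80% matched were the antiviral genes (78.7%) and the interferon-inducible GTPases (71.4%). Of their matched genes, 22 of 37 (59.5%) and 9 of 10 (90%) held the interferon core. A GAS match was in 8 of 37 (21.6%) and 6 of 10 (60%). Other lists below 80% matched held the interferon core too. Its share was 28.6% in nucleic acid sensors and CXC chemokines, 25% in matrix glycoproteins and 22.7% in ribosomal proteins. In TGF-beta genes it was 6.67%, and in CC chemokines 0%. GAS shares were 40% in acute phase genes and 33.3% in caspase and lytic death genes. They were 0% in CXC and CC chemokines, matrix glycoproteins and TGF-beta genes. These shares leave out the unmatched members. All are descriptions of letters, and binding was not measured.

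Nucleic acid sensors fell in 6 of 10 cases with a median of -1.53. Ddx58, the RIG-I gene, stood at 287, 400 and 307 CPM in CM and 47.9, 57.4 and 58.4 in CM-JAKi (-2.60 ± 0.21, adjusted p = 0.000436). Tlr3, the endosomal sensor of double-stranded RNA, went from 21.7, 33.7 and 22.1 CPM to 4.06, 4.22 and 3.95 (-2.66 ± 0.23). Tmem173, which encodes STING, fell from 74.3, 86.6 and 90.6 CPM to 44, 45.3 and 45.3 (-0.90 ± 0.07). The adaptor Mavs (0.17) and the receptors Tlr2 (0.30) and Tlr4 (-0.38) were not called.

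Antigen presentation through MHC class I fell in 18 of 20 tested genes, with a median of -1.65. Psmb8, a subunit of the immunoproteasome that cuts peptides for presentation, was at 65.2, 82.2 and 52.6 CPM in CM and 11.7, 9.04 and 7.85 in CM-JAKi (-2.81 ± 0.15, adjusted p = 0.000145). H2-T23 fell from 122, 127 and 80.3 CPM to 18.8, 16.8 and 19.6 (-2.56 ± 0.17, adjusted p = 0.000224), and Tapbp, which encodes tapasin of the peptide loading complex, changed by -1.70. B2m, the invariant light chain, was at 1744, 1567 and 1232 CPM in CM and 784, 475 and 501 in CM-JAKi (-1.39 ± 0.12). The groups did not overlap for these genes. H2 genes are near-identical in part, so the split between them is uncertain. The members not called were Tapbpl (-0.40) and H2-M3 (-0.12).

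Of the MHC class II pathway 1 of 4 tested genes fell. Cd74, the invariant chain, was at 5.35, 4.4 and 7.65 CPM in MG-CM, against 77.8, 30.7 and 79.9 in CM and, with the inhibitor, 3.32, 2.09 and 1.78 (-4.60 ± 0.32, adjusted p = 0.000287). Ciita, the master factor of class II genes, was at 0.73, 0.217 and 0.361 CPM in CM and 0.954, 0.628 and 0.464 in CM-JAKi and was not called (0.70, adjusted p = 0.156). Among 10 checkpoint and immune surface genes 7 fell and 1 rose, and 4 fell without the block. Lgals9, the galectin-9 gene, went from 122, 145 and 143 CPM to 49.4, 56.5 and 63.2 (-1.28 ± 0.08, adjusted p = 0.000185), and Cd274, the PD-L1 gene, changed by -1.23. Nos2, inducible nitric oxide synthase, went from 20.9, 3.63 and 8.99 CPM to 2.8, 0.209 and 0.193 (-3.73 ± 0.45, adjusted p = 0.00162), a call that the fit without the block did not make (0.0603; 3.87e-15 to 0.0603 over the alternatives). The member that rose was Fas (1.10), a death receptor.

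**Figure D3:**
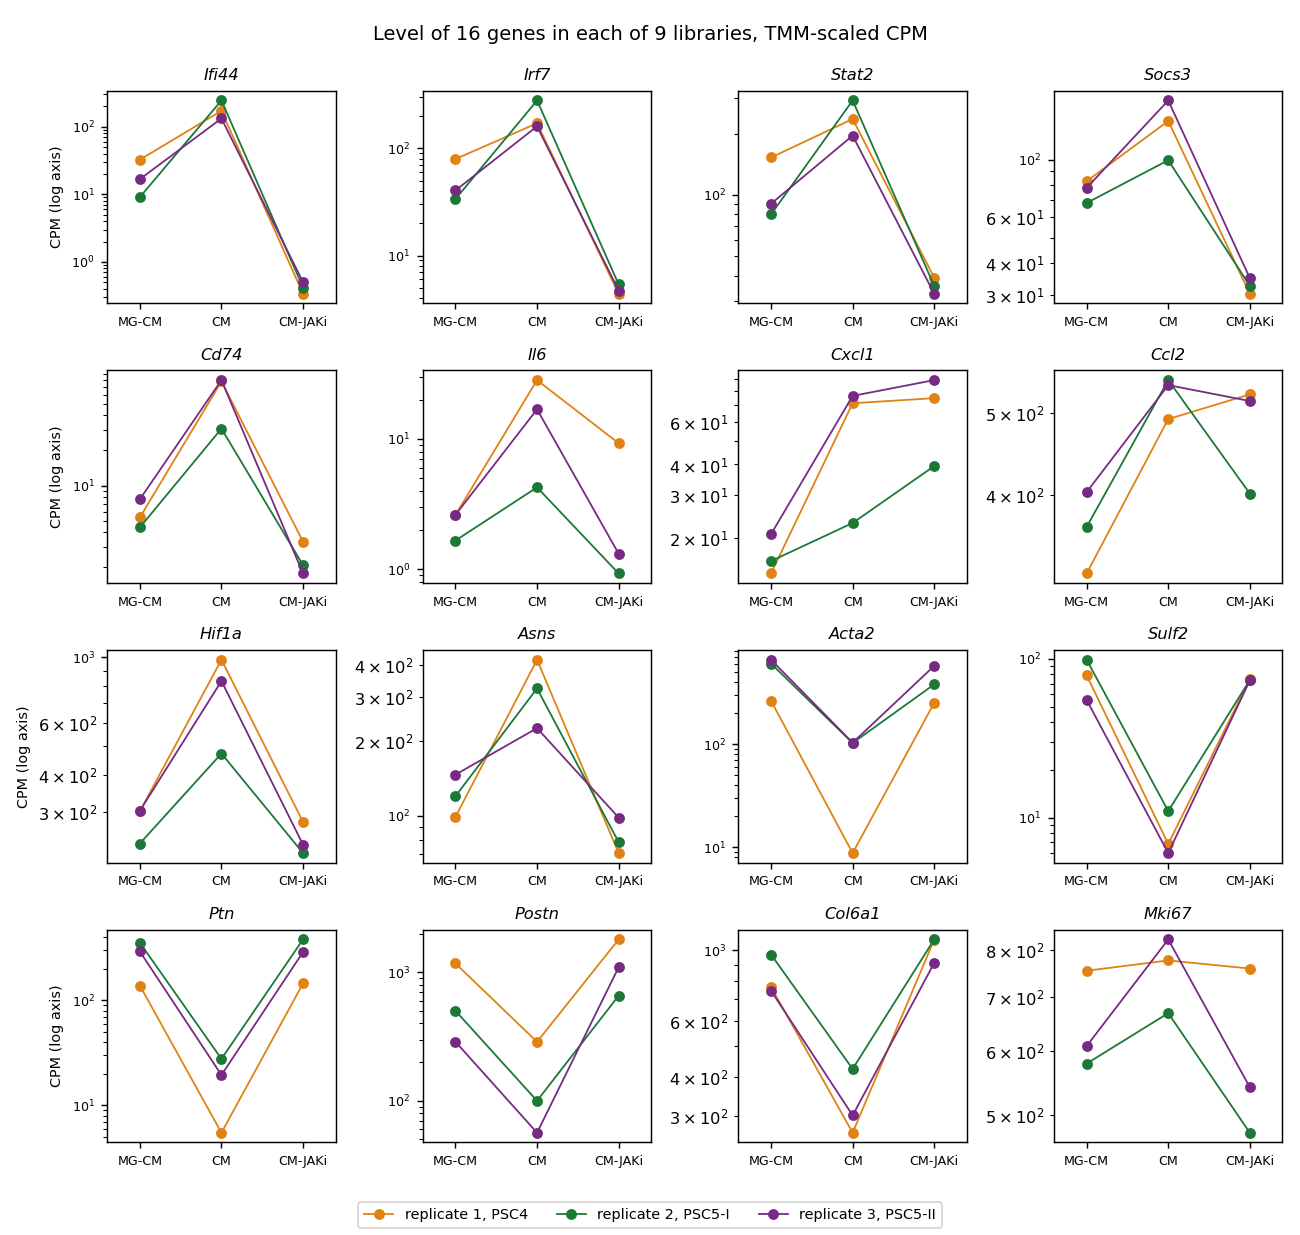
Each panel gives 1 gene's CPM on a log axis in the MG-CM, CM and CM-JAKi library of each replicate, joined by replicate number. For Ifi44, Irf7, Stat2 and Socs3 all CM-JAKi libraries lie below all MG-CM and CM libraries, for Sulf2 and Ptn they lie above all CM libraries, and for Cxcl1 and Ccl2 they overlap with CM.

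Of 9 CXC family and fractalkine genes, 2 fell and 3 rose, and of 9 CC chemokines 2 fell and 1 rose, against 15.6% lower and 18.6% higher of all genes. Cxcl10, a chemokine that interferons induce, stood at 270, 193 and 111 CPM in CM and 38, 32.4 and 33.3 in CM-JAKi, near its 54.7, 30.1 and 32.7 in MG-CM (-2.39 ± 0.22 against CM, adjusted p = 0.000653). Ccl5 went from 45.3, 60.3 and 64.6 CPM to 27.7, 21.8 and 25.4 (-1.18 ± 0.18, adjusted p = 0.00422). Cxcl1 and Ccl2 draw neutrophils and monocytes, and neither was called. Cxcl1 was at 71.4, 23 and 76.5 CPM in CM and 74.9, 39.4 and 88.9 in CM-JAKi (0.31 ± 0.29, adjusted p = 0.442), and Ccl2 at 492, 548 and 540 against 527, 402 and 517 (-0.13 ± 0.12, adjusted p = 0.434). Both groups overlapped, while both genes were higher in CM than in MG-CM (1.58 and 0.54, adjusted p = 0.0143 and 0.0209). Cx3cl1, fractalkine, rose from 15.5, 18.7 and 13.9 CPM to 99.6, 75.7 and 42.7 (2.11 ± 0.18, adjusted p = 0.000534), and Cxcl16, a chemokine made as a membrane protein, from 53.5, 40.1 and 42.6 to 105, 74.7 and 76.2 (0.90 ± 0.07).

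NF-kB is the main pathway downstream of the IL-1 receptor. Of 20 NF-kB factors and targets 4 fell and none rose (20%, against 15.6% of all genes). The counts were 1 lower without the block, 1 without replicate 2 and 2 without replicate 3, and 4 were higher without replicate 1, 2 with DESeq2 and 3 with library size alone. The genes were Tnfaip2 (-1.11), Sod2 (-0.75), Nfkbiz (-0.50) and Birc3 (-0.39). The calls of Sod2, Nfkbiz and Birc3 ended without the block (0.0943, 0.14 and 0.2) and without replicate 2 (0.0553, 0.0517 and 0.0676), and Sod2 and Birc3 also without replicate 3 (0.0513 and 0.15). Over the alternatives p ran from 8.32e-06 to 0.0943, from 0.000313 to 0.14 and from 0.00874 to 0.2. Of 13 IL-1 family and inflammatory cytokine genes 6 fell and 1 rose, and 3 fell without the block. The member that rose was Il34 (0.74, adjusted p = 0.0381), a call that library size alone and RLE factors kept and the other alternatives did not (0.0252 to 0.187). Il1r1, the IL-1 receptor, went from 165, 99.6 and 160 CPM to 131, 54.8 and 58.4 with overlapping groups (-0.87 ± 0.18, adjusted p = 0.0129), and the call ended without the block (0.17) and without replicate 2 (0.1), with p from 1.42e-05 to 0.17. Il1rap, the shared accessory chain, fell from 315, 195 and 187 CPM to 130, 66.8 and 65.1 (-1.45 ± 0.10, adjusted p = 0.000264). Csf3, the granulocyte colony-stimulating factor gene, fell from 21.9, 1.49 and 7.45 CPM to 0.862, 0.0898 and 0.696 (-4.02 ± 0.57, adjusted p = 0.00297). Il33, an alarmin of the IL-1 family, fell by 4.04 on the log2 scale.

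Secreted acute phase proteins fell in 7 of 13 cases, with none higher, and in 4 without the block. Hp, haptoglobin, stood at 3613, 147 and 486 CPM in CM and 216, 22.6 and 81.1 in CM-JAKi (-3.17 ± 0.39, adjusted p = 0.00192). Each pair fell, yet the groups overlapped because replicate 1 was high in both, and without the block the call ended (0.0788; 1.5e-11 to 0.0788 over the alternatives). Serpina3n, a protease inhibitor, went from 505, 279 and 399 CPM to 105, 24.6 and 46.9 (-2.98 ± 0.28, adjusted p = 0.000788). Saa3 and Lcn2, both acute phase genes, were not called; Saa3 was at 3785, 892 and 2335 CPM in CM and 2385, 414 and 3086 in CM-JAKi, and Lcn2 at 69.3, 11.8 and 42.3 against 58, 12.4 and 34.6. Both were higher in CM-JAKi than in MG-CM (2.16 and 1.59, adjusted p = 0.0203 and 0.0195).

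Complement genes moved both ways, 4 lower and 4 higher of 11, with 2 lower without the block and 2 higher without replicate 1. Cfb, factor B of the alternative pathway, fell from 288, 119 and 132 CPM to 26.1, 3.17 and 8.55 (-4.12 ± 0.31, adjusted p = 0.000388). C3, on which all arms converge, rose from 578, 556 and 962 CPM to 1995, 869 and 3547 with overlapping groups (1.47 ± 0.32, adjusted p = 0.0146), and the call ended without replicate 1 (0.106; 0.00102 to 0.106 over the alternatives). Cd59a, which blocks the membrane attack complex, rose by 1.78 ± 0.23. Inflammatory caspase and lytic death genes fell in 7 of 13 cases, and in 4 without replicate 2 or without replicate 3, among them Mlkl, the executor of necroptosis, from 105, 94.8 and 75.9 CPM to 39.1, 33.8 and 40.2 (-1.28 ± 0.12, adjusted p = 0.00055).

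Contractile and smooth muscle genes rose in 23 of 29 cases (79.3%, against 18.6% of all genes), with a median of 0.86. Against MG-CM, CM-JAKi had 1 of the 29 lower and none higher, near the 2.4% and 1.85% of all genes. CM had 22 lower and 1 higher than MG-CM, against 12.8% and 11.6% of all genes. Csrp1, a LIM protein of smooth muscle, was at 255, 295 and 280 CPM in MG-CM, against 156, 175 and 181 in CM and, with the inhibitor, 307, 309 and 303 (0.85 ± 0.07, adjusted p = 0.000442). Tpm2, a tropomyosin, went from 99.4, 140 and 171 CPM to 179, 248 and 264 (0.76 ± 0.08, adjusted p = 0.000706), and Fhl1 from 29.9, 38.4 and 48.7 to 59.9, 89 and 111 (1.14 ± 0.10). Those CM-JAKi libraries all lay above the CM libraries. Acta2, smooth muscle actin and the usual mark of activated stellate cells, stood at 265, 610 and 664 CPM in MG-CM, against 8.73, 103 and 103 in CM and, with the inhibitor, 253, 383 and 580. Its change was 2.89 ± 0.54 (adjusted p = 0.00861). The call ended without replicate 3 (0.0615) and without the block (0.0559), with p from 2.53e-05 to 0.0615 over the alternatives, although the groups did not overlap. Cnn1, calponin, rose from 2.75, 8.74 and 11.5 CPM to 8.5, 23.1 and 24.8 (1.35 ± 0.12) with overlapping groups and was not called without the block (0.157; 6.26e-16 to 0.157 over the alternatives). The member that fell was Tagln2 (-1.04), a transgelin that is widely expressed, and not without the block (0.0624; 3.24e-12 to 0.0624). The list's count was 12 higher without replicate 2 and 11 without the block.

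Collagen chains rose in 11 of 22 cases and fell in 1, with a median of 0.42, and 7 rose without replicate 2. Col6a1 was at 266, 423 and 302 CPM in CM and 1079, 1080 and 911 in CM-JAKi (1.65 ± 0.13, adjusted p = 0.000309), and Col6a2, its partner chain, at 75.5, 100 and 63.1 against 392, 307 and 222 (1.94 ± 0.15, adjusted p = 0.000367). Col1a2 of fibrillar collagen I rose from 273, 331 and 444 CPM to 726, 950 and 901 (1.32 ± 0.11, adjusted p = 0.000378) and also stood above its 412, 518 and 560 in MG-CM (0.80, adjusted p = 0.0115). Col1a1, its partner, went from 541, 574 and 793 CPM to 1119, 958 and 1116 (0.76 ± 0.12, adjusted p = 0.00428), and the call ended without replicate 2 (0.053; 1.5e-08 to 0.053 over the alternatives). Col15a1, a basement membrane zone collagen, showed the largest collagen change, from 1.36, 0.496 and 0.394 CPM to 12.6, 9.96 and 8.7 (3.92 ± 0.27). The chain that fell was Col5a3 (-0.64), whose groups overlapped and whose call ended without any 1 replicate (0.0751, 0.092 and 0.0998 without replicates 1, 2 and 3), without the block (0.0624), in the 6 libraries alone (0.0828) and with library size alone (0.0533), with p from 0.0106 to 0.0998. Col3a1 (0.53) was not called.

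Matrix glycoproteins moved both ways, with 16 of 42 higher (38.1%, against 18.6% of all genes) and 10 lower (23.8%, against 15.6%), and 7 higher without replicate 2. Ogn, the small proteoglycan osteoglycin, rose from 1.46, 6.66 and 5.22 CPM to 33, 48.4 and 52.2 (3.40 ± 0.34, adjusted p = 0.000952). Postn, periostin, rose from 288, 99.9 and 56.4 CPM to 1806, 658 and 1096 (3.26 ± 0.37, adjusted p = 0.00138). Dcn, decorin, fell from 4610, 1197 and 2348 CPM to 485, 213 and 495 (-2.67 ± 0.24, adjusted p = 0.000546), near its 512, 262 and 352 in MG-CM. Tnc, tenascin C, fell from 2273, 1268 and 2398 CPM to 603, 534 and 613 (-1.71 ± 0.15, adjusted p = 0.000447). None of these 4 overlapped between groups, as was so for 38.3% of all genes. Spp1, osteopontin, was at 23206, 7299 and 9168 CPM in CM and 2338, 894 and 532 in CM-JAKi, a change of -3.42 ± 0.35.

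Of 26 matrix proteases and inhibitors 10 fell and 11 rose. Mmp13, a collagenase, fell from 167, 32.8 and 32.7 CPM to 11.6, 0.868 and 1.04 (-4.45 ± 0.31, adjusted p = 0.000282), and Mmp10, a stromelysin, from 7.3, 4.9 and 4.13 to 1.2, 0.419 and 0.309 (-3.18 ± 0.26). Timp1, an inhibitor of these enzymes that STAT3 induces, fell from 453, 240 and 387 CPM to 155, 151 and 182 (-1.12 ± 0.18, adjusted p = 0.00422). Without replicate 2, 3 members of this list rose and 6 fell, and 6 rose without replicate 3 or without the block.

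TGF-beta drives the contractile programme of fibroblasts. Of 27 genes of its ligands, receptors and targets 9 rose (33.3%, against 18.6% of all genes) and 6 fell (22.2%, against 15.6%), with a median of 0.07. Without replicate 2 the counts were 3 higher and 4 lower. Id3, a target of BMP and TGF-beta receptors, rose from 24.6, 30.6 and 37.6 CPM to 95, 186 and 151 (2.18 ± 0.16, adjusted p = 0.000309). The ligand Tgfb1 went the other way, from 33, 22.3 and 19.5 CPM to 19.5, 13 and 11.8 (-0.75 ± 0.10, adjusted p = 0.00236), with no call without the block (0.0627; 6.49e-07 to 0.0627). Tgfbr1 fell from 338, 171 and 220 CPM to 126, 91.4 and 78.4 (-1.27 ± 0.14, adjusted p = 0.00104). Tgfbr2 was at 153, 201 and 237 CPM in CM and 267, 208 and 204 in CM-JAKi, with overlapping groups and no call (0.19 ± 0.19, adjusted p = 0.459). Wnt and Notch genes rose in 8 of 24 cases (33.3%), with none lower. Without replicate 2 or without replicate 3, 4 rose, and without replicate 1, 3 fell. Sfrp4, a secreted Wnt antagonist, rose from 3.62, 5.02 and 7.61 CPM to 9.79, 25.8 and 17.2 (1.65 ± 0.26, adjusted p = 0.00451).

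Of 36 growth factor genes 9 were higher (25%) and 7 lower (19.4%), near the 18.6% and 15.6% of all genes. Without replicate 2 the counts were 4 higher and 4 lower, and without the block 3 and 4. Ereg, the EGF receptor ligand epiregulin, fell from 350, 153 and 168 CPM to 76, 29.2 and 24.7 (-2.42 ± 0.26, adjusted p = 0.00127). Nrg1, a ligand of ERBB receptors, rose from 14.4, 13.8 and 11.2 CPM to 24.1, 26.3 and 24.9 (0.94 ± 0.10, adjusted p = 0.000851), and Fgfr2 rose by 1.06. Ptn, the heparin-binding growth factor pleiotrophin, had the largest rise among tested genes whose log2 CPM averaged 2 or more over the 6 CM and CM-JAKi libraries. It was at 139, 355 and 293 CPM in MG-CM, against 5.49, 27.8 and 19.5 in CM and, with the inhibitor, 145, 382 and 289 (4.08 ± 0.20, adjusted p = 0.000145). Sulf2, which trims sulfate from heparan sulfate chains, went from 6.85, 11 and 6 CPM to 74.6, 73.6 and 73.2 (3.26 ± 0.19, adjusted p = 0.000186), close to its 78.7, 98.7 and 55.1 in MG-CM. Bmp3, a BMP family member, rose by 3.47 ± 0.33, and Agt, angiotensinogen, by 2.97 ± 0.24. Ddit4l, an inhibitor of mTOR signalling, stood above both other groups, at 12.8, 17.7 and 14.7 CPM in MG-CM, against 2.57, 3.97 and 4.1 in CM and, with the inhibitor, 45.9, 37.3 and 36.5 (3.50 ± 0.21). Pde7b, a cyclic AMP phosphodiesterase, did so too, at 1.78, 1.25 and 2.2, at 1.25, 0.961 and 1.67 and at 13.8, 10 and 12.8 CPM (3.26 ± 0.17).

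Genes of hypoxia and glycolysis fell in 24 of 34 cases (70.6%, against 15.6% of all genes), with none higher and a median of -0.75. Without replicate 3 the count was 12, and without replicate 2 it was 21. Hif1a, the oxygen-regulated factor, was at 302, 235 and 303 CPM in MG-CM, against 981, 473 and 831 in CM and, with the inhibitor, 278, 218 and 233 (-1.60 ± 0.16, adjusted p = 0.000706). Pdk1, which keeps pyruvate from the mitochondrion, fell from 117, 33.9 and 89.3 CPM to 18.4, 11 and 14.4 (-2.35 ± 0.24, adjusted p = 0.000988). Hk2, the first kinase of glycolysis, fell from 83.8, 57.4 and 90.5 CPM to 21.3, 23.5 and 36.4 (-1.52 ± 0.13, adjusted p = 0.000475). In each case the CM libraries were the high ones. Slc16a3, a lactate exporter, fell by 3.27 on the log2 scale. Ndrg1 fell from 115, 97.1 and 90.7 CPM to 61.9, 50.5 and 42.2 (-0.98 ± 0.08) and lay below its 126, 121 and 110 in MG-CM.

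Amino acid supply genes and targets of the stress factor ATF4 fell in 25 of 30 cases and rose in 1, with a median of -1.13. Without replicate 2 only 4 of them fell, and without replicate 1, 11. The list medians were -1.71, -1.16 and -0.43 in pairs 1, 2 and 3. Asns, asparagine synthetase, went from 421, 323 and 224 CPM to 70.9, 78.4 and 98.3 (-1.98 ± 0.28, adjusted p = 0.00303), and its call ended without replicate 2 (0.0521; 4.42e-15 to 0.0521 over the alternatives). Atf3, a stress-induced factor, went from 31, 21.4 and 15.9 CPM to 5.94, 5.95 and 5.34 (-1.94 ± 0.16, adjusted p = 0.000363), and Nupr1 from 106, 83.3 and 60.7 to 48.4, 38.3 and 34.3 (-1.03 ± 0.12). The member that rose was Cbs (1.53 ± 0.22), cystathionine beta-synthase.

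Cholesterol and fatty acid synthesis genes fell in 23 of 31 cases with none higher, with a median of -0.59 and list medians of -0.70, -0.58 and -0.39 in the pairs. Without replicate 2 only 3 fell. Elovl6, which lengthens fatty acids, was at 222, 152 and 179 CPM in CM and 90.3, 75.1 and 108 in CM-JAKi (-1.02 ± 0.14, adjusted p = 0.00236). Stard4, a sterol carrier, went from 113, 99.3 and 114 CPM to 69.9, 55.3 and 69.7 (-0.75 ± 0.08, adjusted p = 0.000851). In MG-CM they were at 82, 72.4 and 115 and 62.6, 54.9 and 76.6 CPM. No member of the list was called in CM-JAKi against MG-CM. In that comparison 2.4% of all genes were lower and 1.85% higher, so a list without calls is near those shares. In CM against MG-CM, 26 members were higher, against 11.6% of all genes.

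Antioxidant genes moved both ways. Of 18 tested, 5 fell (27.8%, against 15.6% of all genes) and 3 rose (16.7%, against 18.6%), with a median of -0.10. Their changes ran from -3.06 to 1.99. The metallothionein genes Mt2 and Mt1, whose products bind zinc and copper, fell. Mt2 was at 603, 188 and 270 CPM in CM and 65.3, 25.9 and 31.3 in CM-JAKi (-3.06 ± 0.10, adjusted p = 3.06e-05), and Mt1 at 674, 364 and 420 against 307, 203 and 199 (-1.02 ± 0.10, adjusted p = 0.000706). Targets of p53 rose in 10 of 17 cases (58.8%, against 18.6% of all genes), with none lower and a median of 0.46. The count was 4 without replicate 2, 5 without replicate 3 and 6 without the block. Ccng1, cyclin G1, rose from 60.3, 140 and 144 CPM to 181, 492 and 581 (1.81 ± 0.14, adjusted p = 0.000356), Sesn1 from 22.3, 30.5 and 33.4 to 71.6, 70.4 and 67.6 (1.30 ± 0.12) and Trp53inp1 by 1.39 ± 0.09. Cdkn1a, the p21 gene, was not called, with 48.7, 40.9 and 25.4 CPM in CM and 38.3, 76.8 and 82.4 in CM-JAKi (0.72 ± 0.38, adjusted p = 0.181). Replication and mitosis genes fell in 11 of 40 cases (27.5%, against 15.6% of all genes) and rose in 1, with no change of 2-fold or more. The falls numbered 2 without replicate 2, 2 without replicate 3, 3 without the block, 5 in the 6 libraries and 4 with library size alone. The member that rose was Kif23 (0.35), whose call ended without any 1 replicate (0.121, 0.0539 and 0.129) and without the block (0.106; 0.0159 to 0.129). Mki67, the proliferation marker Ki-67, was at 776, 668 and 823 CPM in CM and 758, 476 and 541 in CM-JAKi (-0.38 ± 0.12, adjusted p = 0.0478). It was not called without the block (0.215), without replicate 2 (0.261), without replicate 3 (0.302), in the 6 libraries alone (0.12), with library size alone (0.124) or without the filter on low counts (0.05), with p from 0.00431 to 0.302 over the alternatives.

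Retinoid, lipid and quiescence genes of stellate cells rose in 6 of 13 cases and fell in 3. Cygb, the stellate globin, rose from 8, 11.3 and 6.07 CPM to 47.4, 44.1 and 22.6 (2.13 ± 0.17, adjusted p = 0.00032). Pparg, the adipogenic nuclear receptor, rose from 1.32, 3.01 and 2.36 CPM to 3.85, 7.33 and 7.04 (1.45 ± 0.19, adjusted p = 0.00178), whereas Fabp4, a fatty acid binding protein, fell from 15.8, 6.44 and 12.1 to 3.48, 1.56 and 1.66 (-2.35 ± 0.20, adjusted p = 0.000405). Of 32 cytosolic ribosomal protein genes all 32 had a change below 0 and 3 were called. Their median was -0.79 in pair 1, -0.17 in pair 2 and -0.06 in pair 3. The calls of Rps18 (-0.56), Rps3 (-0.48) and Rpl5 (-0.51) each ended with library size alone, in the 6 libraries alone, without the block, without replicate 2 and without replicate 3, while DESeq2 called 12 of the 32. With library size alone p was 0.0522, 0.0629 and 0.0677, and over the alternatives p ran from 0.00313 to 0.145, from 0.00592 to 0.138 and from 0.00828 to 0.13.

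**Figure D4:**
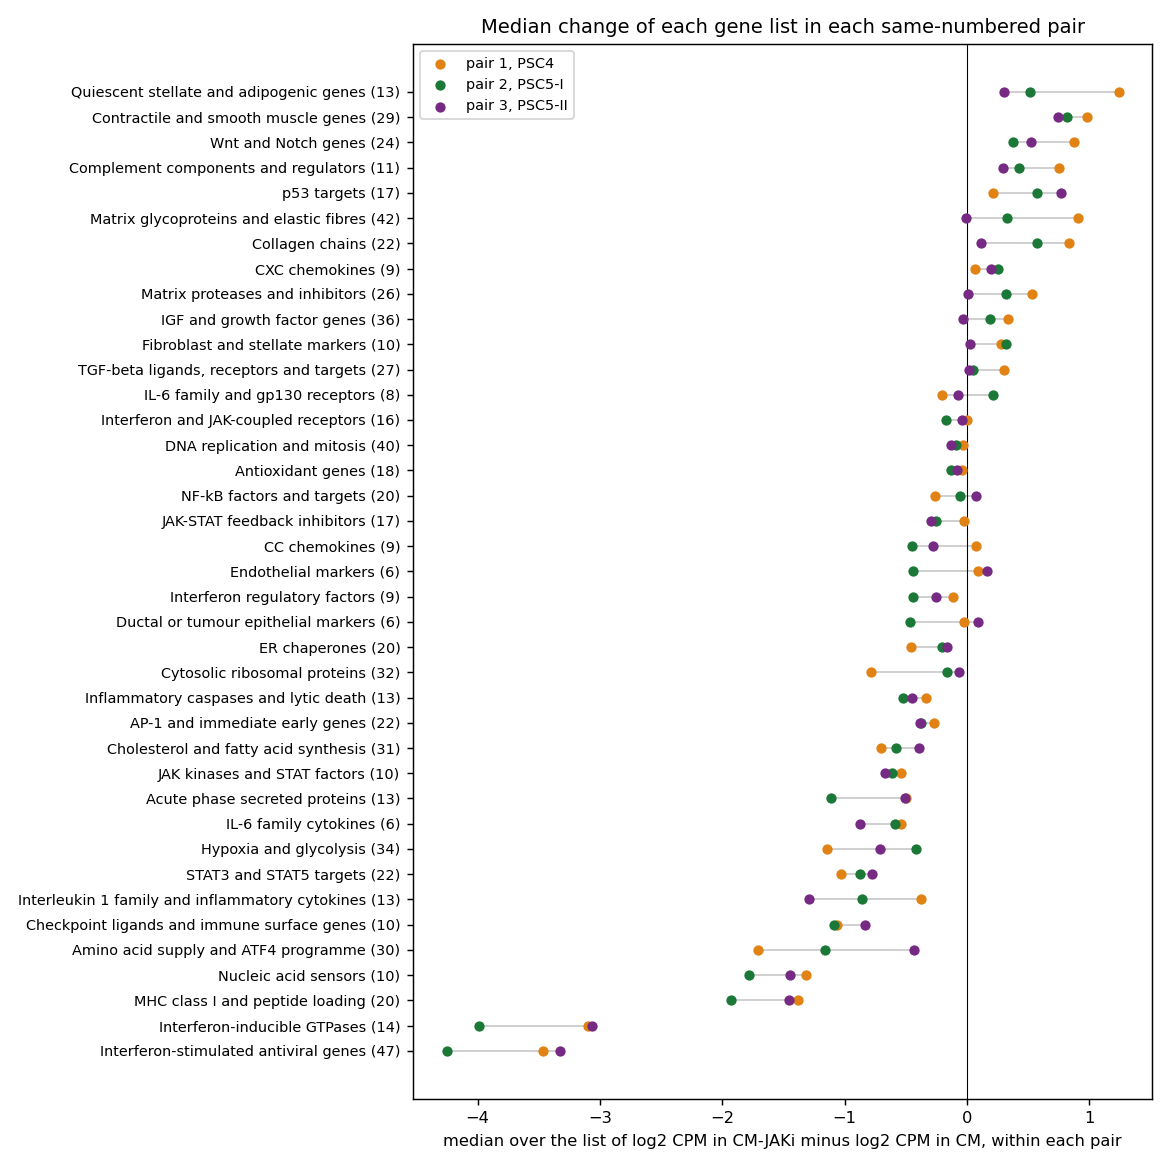
Each row is a gene list and each point the median, over its tested members, of log2 CPM in CM-JAKi minus CM within 1 pair (orange PSC4, green PSC5-I, purple PSC5-II). The antiviral list runs from -4.25 to -3.33, while the amino acid list runs from -1.71 to -0.43 and the ribosomal list from -0.79 to -0.06.

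Single genes among the markers of other cell types moved. The summed level of the leukocyte list was 34 to 118 CPM in CM and 16 to 32.7 in CM-JAKi, nearly all of it Cd14, which fell from 114, 30.3 and 49.2 CPM to 29.6, 12.8 and 15.5 (-1.64 ± 0.23, adjusted p = 0.00284). Of its 4 tested genes Lyz2, Csf1r and Cd68 were not called, and Ptprc had at most 1 count in any library. The ductal list was at 34.4 to 37.2 CPM in CM and 28.6 to 45.1 in CM-JAKi, with Muc1 lower (-1.97) and Krt19 higher (2.32) of 6 tested, and Krt19 not called without the block (0.0914; 3.23e-11 to 0.0914). The mesothelial list was at 4.38 to 71.4 CPM in CM and 7.2 to 56.9 in CM-JAKi. Of its 4 tested genes Wt1 fell (-3.01), and not without replicate 2 (0.0537; 5.9e-05 to 0.0537); Msln was at 1.15, 6.54 and 67.1 CPM in CM and 5.91, 21.4 and 53.8 in CM-JAKi. The endothelial list was at 3.48 to 5.11 CPM in CM and 9.13 to 16.4 in CM-JAKi, and of its 6 tested genes Emcn and Tek rose, Tek by 1.37 and not without replicate 2 (0.0782) or replicate 3 (0.0685; 0.00352 to 0.0782). Emcn, the sialomucin endomucin, had 0, 0 and 1 counts in CM and 205, 427 and 91 in CM-JAKi, a ratio of 721 between group sums (exact 95% interval from counting alone 129 to 28520), and 27, 27 and 14 counts in MG-CM. Cdh5, a defining endothelial gene, had at most 15 counts in any library and Pecam1 at most 17. The Schwann and neural list was at 36.6 to 61.5 CPM in CM and 69.4 to 78.8 in CM-JAKi, nearly all of it Ncam1, an adhesion molecule, the 1 called of 3 tested genes. Ncam1 rose from 34.8, 40.4 and 60.1 CPM to 66.9, 73.2 and 77.2 (0.71 ± 0.14, adjusted p = 0.00817), and the call ended without replicate 2 (0.0874; 3.25e-05 to 0.0874). Of the acinar and endocrine list 1 gene was tested, Cela1, an elastase, which fell from 9.49, 9.54 and 13.9 CPM to 5.57, 7.21 and 7.81 (-0.67) and not without replicate 3 (0.0719; 0.000683 to 0.0719); Cpa1 had at most 1 count in any library. What part these cells have in the changes above was not tested.

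The inhibitor effect was also compared between PSC4 (1 pair) and PSC5 (2 pairs) as an interaction term. It differed at 282 of 13613 genes (2.07%), and the PSC4 value was above the PSC5 value in 211 of them. In 116 of the 282 the gene was also called in the comparison over 3 pairs, as were 34.2% of all genes. In 84 of the 282 the fitted changes had opposite signs in the 2 lines. With the 6 libraries alone the effect differed at 80 genes. The rise of Acta2 was larger in PSC4, at 4.86 against 2.20 in PSC5, and the CM level in PSC4 was the lowest of 8.73, 103 and 103 CPM (difference 2.66 ± 0.29, adjusted p = 0.0239). Ptn did the same by 0.89 ± 0.16 (adjusted p = 0.044). Lifr, the LIF receptor gene, had changes of -1.06 in PSC5 and -0.01 in PSC4 (difference 1.05 ± 0.17, adjusted p = 0.0336), and was not called over 3 pairs (adjusted p = 0.0517). In the antiviral list 1 of 47 genes differed, Ifitm1, with -0.12 in PSC4 and -1.38 in PSC5 (adjusted p = 0.00857), and none of the 14 GTPases did. In the contractile list 7 of 29 genes differed. Each such difference rests on 1 PSC4 pair.

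**Figure D5:**
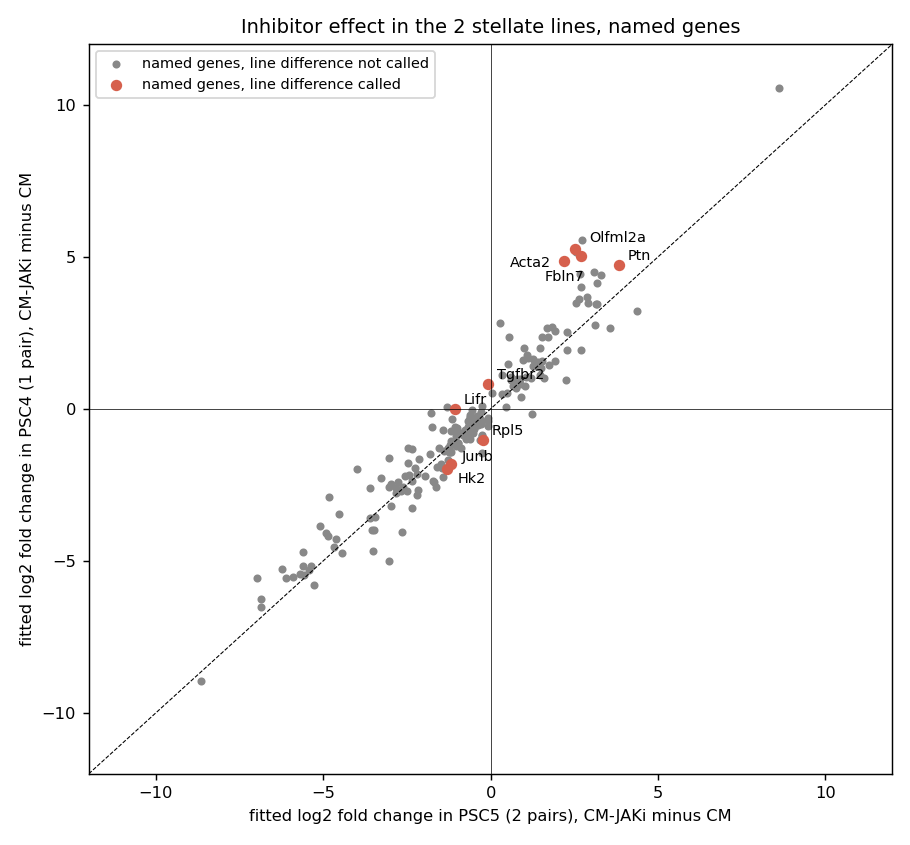
Each point is 1 of 200 described genes, with the fitted log2 change in PSC5 on the x axis and in PSC4 on the y axis; the dashed line marks equal changes. Red points are the 9 genes whose difference between lines was called, among them Acta2 (4.86 against 2.20) and Olfml2a (5.25 against 2.51) above the line.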

How the data were processed

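RNA of 9 stellate cell libraries was sequenced, per the labels, after ribosomal RNA depletion with strand-specific library preparation. The authors deposited 1 table of expected counts per gene, whose values are whole numbers; RSEM 1.2.29, STAR 2.5.1b and DESeq2 and the builds NCBIM37 and mm9 are listed, without roles, per the submitters' processing notes. Library totals of 25625806 to 32466018 counts set the counting precision. Counts were fitted for all 9 libraries with edgeR 4.0.16 in R 4.3.3 (quasi-likelihood, robust, TMM scaling, medium group plus replicate number as block), after the filterByExpr filter (minimum count 10, minimum total 15) kept 13613 of 17156 genes. P-values were Benjamini-Hochberg adjusted over all tested genes. Libraries were paired by replicate number. Deviations of CM and CM-JAKi from their group means correlated at 0.506, 0.378 and 0.387 for equal numbers and at -0.406 to 0.206 for unequal ones. Deviations from a mean of 3 libraries depend on each other, and replicate 1 is the only PSC4 pair. Its values thus cannot tell pairing from line. Within PSC5 equal numbers gave 0.378 and 0.387, and unequal ones 0.206 and 0.119. The labels call the replicates biological but do not say whether PSC5-I and PSC5-II are separate isolates, so p-values measure the spread between these libraries. Alternatives were no block, the 6 CM and CM-JAKi libraries, DESeq2 1.42.0, library size alone, RLE factors, no filter, and each replicate left out. The procedure was also run on counts simulated without line, replicate or medium source effects. That run cannot show how the block or the line comparison handles such effects.

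The members and the gene lists were chosen with earlier results of these data known. The genes described are the 15 highest and 15 lowest among called genes that kept the call without each replicate, at a mean log2 CPM of at least 2 over the 6 CM and CM-JAKi libraries, up to 4 genes of smallest p per list, and 17 genes taken whatever their result. Other genes named in the text were chosen after their values were seen: B2m, C3, Ccnd1, Cd274, Cdkn1a, Col3a1, Col5a3, Fas, H2-M3, Ifit2, Ifitm1, Ifitm2, Ifnar1, Ifnar2, Ifngr1, Ifngr2, Il33, Il34, Isg15, Kif23, Lcn2, Mavs, Pias4, Rnf213, Saa3, Slc16a3, Socs1, Sox10, Spp1, Tagln2, Tapbpl, Timp1, Tlr2, Tlr4 and Tyk2. Promoters came from RefSeq on GRCm38.p6, matched by symbol; the count table's own coordinates were not used here. Single genes of some lists are not reported here.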

Additional observations from a re-analysis of the deposited data

Results flagged for a closer look

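The inhibitor effect differed between the PSC4 pair and the PSC5 pairs, by the interaction term of the edgeR fit with adjustment over all genes, at 9 of the 200 described genes. Values are log2 changes in PSC4 and in PSC5, then PSC4 minus PSC5. Acta2, smooth muscle actin, had 4.86 and 2.20, a difference of 2.66 ± 0.29 (adjusted p = 0.0239). Olfml2a, an olfactomedin-like matrix protein, had 5.25 and 2.51, a difference of 2.74 ± 0.34 (adjusted p = 0.0178). Fbln7, a fibulin, had 5.03 and 2.69, a difference of 2.34 ± 0.30 (adjusted p = 0.0353). Ptn differed by 0.89 (adjusted p = 0.044), Lifr by 1.05 (0.0336) and Tgfbr2 by 0.88 (0.0366). A further 3 had the lower value in PSC4: Junb differed by -0.65 (adjusted p = 0.0479), Hk2 by -0.68 (0.0487) and Rpl5 by -0.79 (0.0279). PSC4 has 1 pair, and the cause of these differences was not tested.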

How the results depend on the processing

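With 2529 genes higher and 2126 lower as the reference, the fit without the replicate block called 1369 higher and 1216 lower, and the fit of the 6 CM and CM-JAKi libraries 1670 higher and 1497 lower. Leaving out 1 replicate gave 764 to 2212 higher and 668 to 1981 lower genes, the lowest of both without replicate 2. DESeq2 called 2417 higher and 2304 lower, and RLE factors and the unfiltered table stayed within 1.5 times of the reference. The count of genes whose effect differed between lines fell from 282 to 80 with the 6 libraries alone. No described gene changed direction past the threshold. Of the 200 described genes, 178 were called. Among these 178, 34 lost the call without the block, 36 without replicate 2, 28 without replicate 3 and 0 without replicate 1. With the 6 libraries 10 lost it, with library size alone 8, without the filter 3 and with DESeq2 1. Under every alternative run, 124 of the 178 kept the call. The block changed no other call beyond those given here and beside the genes. Why counts and calls changed between these fits was not tested. Genes at a few counts per library, such as Emcn in CM, are limited by depth.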
